A study of Canis lupus familiaris with 18 samples.

Results

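The genes of the proteasome, the protein complex that degrades ubiquitin-tagged proteins, were described in 18 canine osteosarcomas. A gene was a member if a probe set carried it as its only symbol and the symbol began with PSMA, PSMB, PSMC, PSMD, PSME, PSMF or PSMG. The rule found 44 of the 15115 genes with a single symbol, on 89 probe sets, and each gene was read from its probe set of highest mean level over the 18 arrays. The members were 8 alpha-type and 6 constitutive beta-type core subunits, 5 ATPases and 9 other subunits of the regulatory particle, and 5 assembly chaperones. PSME3, PSME4 and PSMF1, the 5 immunoproteasome genes PSMB8, PSMB9, PSMB10, PSME1 and PSME2, and the thymus gene PSMB11 made up the rest of the complex. PSMC3IP, a recombination factor, and PSME3IP1, which binds PSME3, match the symbol rule without being subunits. PSMB7, PSMC1, PSMD1, PSMD4, PSMD5 and PSMG4 were not analysed here.

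The samples were primary osteosarcomas of dogs, malignant bone tumours whose cells lay down bone matrix, snap frozen when removed by surgery, biopsy or necropsy. They were grouped by the serum concentration of alkaline phosphatase (ALP), an enzyme released mainly by bone and liver, into 9 tumours with normal ALP and 9 with increased ALP. The labels give no treatment, age, breed or tumour site, leave the procedure of each tumour unstated, and list no normal bone. They do not state that each tumour came from a separate dog, so p-values measure the spread between these samples only.

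RNA of each tumour was read on 1 canine array from Affymetrix, and levels are given as log2(signal + 16), a scale that understates the changes of dim probe sets. Differences are increased minus normal ALP. Array medians of the deposited values lay between 6.25 and 6.31, and the 9 arrays per group limit the precision. All 10 measured osteoblast markers, among them COL1A1, ALPL and PHEX, passed the filter on dim probe sets, as did all 4 leukocyte and all 9 macrophage markers. The 3′ minus middle difference of the actin controls, a measure of RNA quality, was 0.430 with normal and 0.715 with increased ALP (exact permutation p = 0.00222). It was highest in increased ALP tumours 9, 1 and 6, at 1.15, 1.05 and 1.03. The same difference of the GAPDH controls was 0.336 with normal and 0.408 with increased ALP (exact permutation p = 0.441). In bulk tumour RNA, fewer cells of a type and less RNA per cell cannot be told apart.

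The proteasome core is a barrel of stacked rings, with alpha subunits forming the gated outer rings and beta subunits the inner rings that cut proteins. Its regulatory particle carries ATPases that unfold substrates and other subunits that bind ubiquitin chains and remove them. Interferon-gamma switches on PSMB8, PSMB9 and PSMB10, which immune cells also carry at rest and which replace the constitutive catalytic subunits PSMB5, PSMB6 and PSMB7 in newly built cores. With the cap made of PSME1 and PSME2 (PA28 alpha and beta), this immunoproteasome favours peptides for presentation on MHC class I. Osteosarcoma and other matrix-secreting cells carry a heavy protein load, and the core is the target of bortezomib, which blocks PSMB5.

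No proteasome gene was called different between the serum ALP groups. Of the 44 members, 43 passed the filter, and 0 of these had an adjusted p under 0.05 in limma with Benjamini-Hochberg adjustment over all 25754 probe sets. The share of all probe sets called was also 0%. At an unadjusted p under 0.05, 0 of 43 members passed, where 6.14% of all probe sets did. The smallest adjusted p of a member was 0.842. The levels of the groups overlapped for all 43 members, as for all probe sets tested (0% without overlap). PSMA8, a testis-specific alpha subunit, was the member below the filter, with a mean of 4.60 in normal and 4.63 in increased ALP.

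The signs of the differences were uneven although none passed. Among 27 constitutive subunits tested, 23 had a negative difference, with a median of -0.12 and a range from -0.46 to 0.07. Of the 5 immunoproteasome genes, 4 had a positive difference, with a median of 0.08 and a range from -0.24 to 0.11. Over all 10717 genes tested, 46.6% had a negative difference and the median was 0.01. The constitutive count rested on a few tumours, because it was 18 of 27 without normal ALP tumour 2 or without increased ALP tumour 7, and 26 of 27 without normal ALP tumour 3. The constitutive median ran from -0.20 to -0.04 when single tumours were left out, and was -0.06 without the 2 arrays of high spike-in signal. With each array scaled to a common 75th percentile it was 18 of 27 (4 of 7 alpha subunits, 3 of 6 beta subunits, 4 of 5 ATPases and 7 of 9 other regulatory subunits), while the median of all probe sets moved to 0.05. The immunoproteasome count was 4 of 5 under that scaling and under quantile normalization, but its median was -0.11 with the actin difference as a covariate and -0.07 without increased ALP tumour 2. These genes varied together across tumours, so their signs are not independent of each other.

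**Figure D1:**
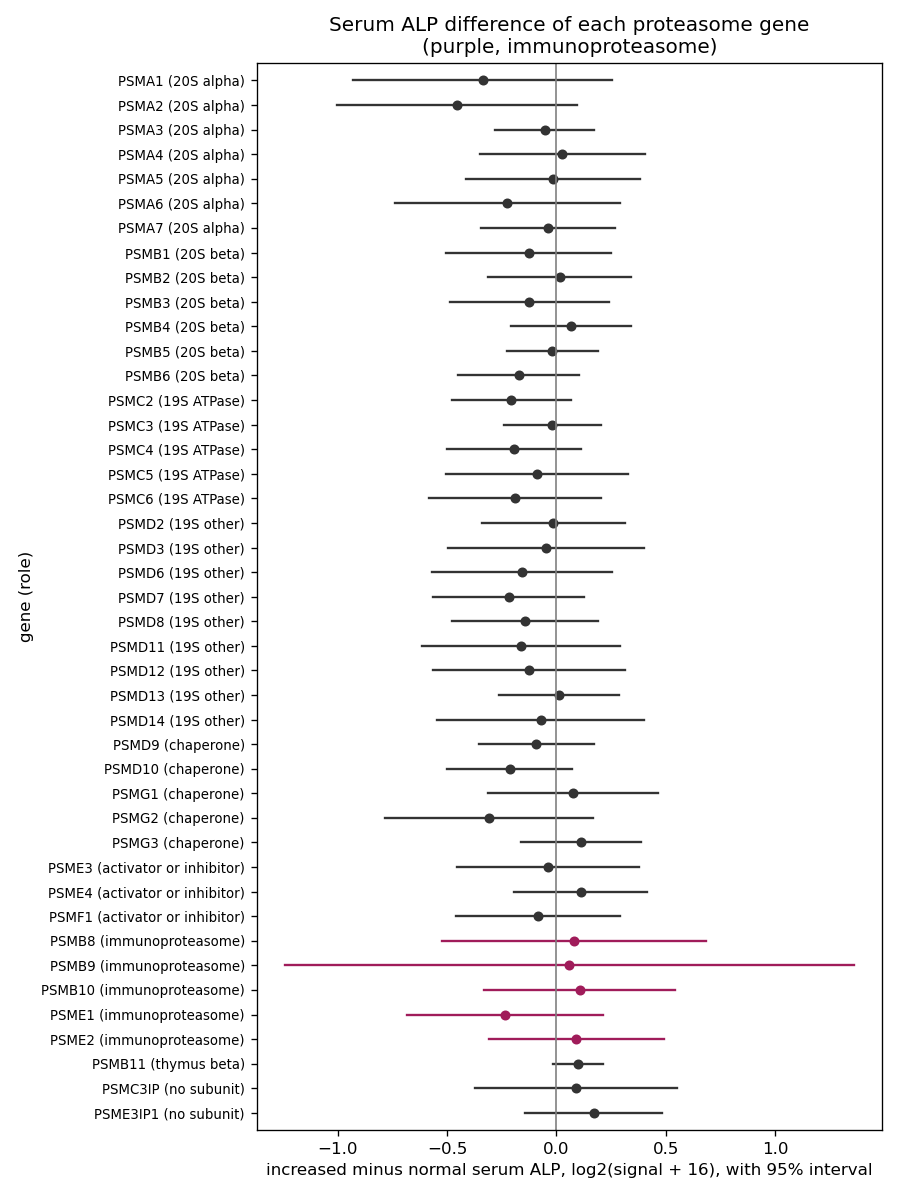
Difference in log2(signal + 16) between increased and normal serum ALP for the 43 tested members (points), with 95% intervals from limma (bars). Every interval crosses 0, the widest is that of PSMB9 (-1.24 to 1.36), and PSMA2 has the most negative estimate (-0.46).

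Among the alpha subunits, which form the outer rings, 6 of 7 tested had a negative difference, with a median of -0.05. PSMA2 ranged from 10.37 to 12.20 around a median of 11.61 with normal ALP, and from 9.80 to 11.73 around 11.14 with increased ALP. The groups overlapped over most of their range, and the lowest level belonged to increased ALP tumour 3. The means were 11.47 ± 0.56 (SD, n = 9) and 11.02 ± 0.62 (SD, n = 9). Its difference of -0.46 ± 0.26 (SE, 95% interval -1.005 to 0.094) was the furthest from 0 in the family and had an adjusted p of 0.843 in limma. It was -0.30 without increased ALP tumour 3 and -0.22 without tumours 3 and 6 of that group, whose arrays had high spike-in signal, where PSMD7 lay further from 0 (-0.26). A dimmer PSMA2 probe set gave -0.30. PSMA1 spread most among the constitutive subunits, by 2.58 on the log2 scale between the lowest and highest tumour, but its probe set can bind other transcripts and the gene also lies on 5 probe sets that carry several symbols. The other alpha subunits, PSMA3 to PSMA7, had differences between -0.23 and 0.03.

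Of the constitutive beta subunits, 4 of 6 had a negative difference, with a median of -0.07. PSMB5, the chymotrypsin-like catalytic subunit, was among the steadiest genes of the family. It ranged from 12.52 to 13.14 around a median of 12.81 with normal ALP, and from 12.48 to 13.04 around 12.76 with increased ALP. All 18 tumours thus lay within 1.58-fold of each other. The difference of -0.02 ± 0.10 (SE) had a 95% interval from -0.23 to 0.19 and an adjusted p of 0.985 in limma. PSMB6, the caspase-like catalytic subunit, ranged from 11.51 to 12.51 around 11.94 with normal ALP and from 11.39 to 12.11 around 11.91 with increased ALP. Its medians were nearly equal, and the difference of means was -0.17 ± 0.13 (SE, 95% interval -0.45 to 0.10; adjusted p = 0.864 in limma). The structural subunit PSMB4 ranged from 12.30 to 12.95 with normal ALP and from 12.02 to 13.03 with increased ALP, with a difference of 0.07 ± 0.13 (SE; adjusted p = 0.946 in limma). PSMB1, PSMB2 and PSMB3 had differences of -0.13, 0.01 and -0.12.

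PSMB9 and PSMB8 varied more between tumours than PSMB6 and PSMB5, which they replace, with SDs over 18 tumours of 1.38 and 0.63 against 0.28 and 0.20. The constitutive subunits PSMA1 and PSMA2 varied about as much as PSMB8, with SDs of 0.63 and 0.62. PSMB10, PSME1 and PSME2 had SDs between 0.40 and 0.47, near the median of 0.37 for the constitutive subunits tested. PSMB9, the inducible counterpart of PSMB6, ranged from 7.85 to 11.68 around a median of 10.17 with normal ALP. With increased ALP it ranged from 7.23 to 11.36 around 10.11. The lowest and highest of the 18 tumours differed by 22.0-fold, and the SD stood at the 98.6th percentile of all probe sets tested. The groups overlapped almost completely, with means of 9.81 ± 1.34 (SD, n = 9) and 9.87 ± 1.49 (SD, n = 9). Their difference was 0.06 ± 0.62 (SE), limma giving a 95% interval from -1.24 to 1.36 and an adjusted p of 0.993. That interval allows a ratio from 0.423 to 2.57, and with the actin difference as a covariate the estimate was -0.52.

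In 4 tumours PSMB9 lay apart from the rest. The levels were 7.98 and 7.85 in normal ALP tumours 1 and 4, and 7.66 and 7.23 in increased ALP tumours 3 and 5. The other 14 tumours lay between 8.93 and 11.68. Both serum groups held 2 of the low tumours. PSMB8 was not extreme in these 4, at 8.47, 8.39, 8.67 and 8.17, against 7.87 to 9.89 over all tumours. PSMB9 was measured by 1 probe set, which can bind more than 1 transcript, so no second probe set bears on these values.

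PSMB8, the inducible counterpart of PSMB5, ranged from 7.87 to 9.79 around 8.42 with normal ALP and from 7.95 to 9.89 around 8.48 with increased ALP. In each group 2 tumours stood highest, normal ALP tumours 2 and 9 at 9.54 and 9.79 and increased ALP tumours 1 and 2 at 9.50 and 9.89. The tumours spanned 4.06-fold. The difference was 0.08 ± 0.29 (SE), limma giving a 95% interval from -0.52 to 0.69 and an adjusted p of 0.979. A second PSMB8 probe set followed the first across tumours (r = 0.941, n = 18) and gave a difference of -0.05.

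PSMB10, the inducible counterpart of PSMB7, ranged from 9.02 to 10.79 around 9.69 with normal ALP and from 9.32 to 10.24 around 9.86 with increased ALP. Normal ALP tumour 2 was highest and normal ALP tumour 7 lowest, so the increased group lay inside the range of the normal group. The difference was 0.11 ± 0.21 (SE, 95% interval -0.33 to 0.54; adjusted p = 0.946 in limma). PSME2, the beta subunit of the PA28 cap, ranged from 9.92 to 11.32 around 10.48 with normal ALP and from 10.00 to 11.12 around 10.53 with increased ALP. Its groups overlapped fully as well, with a difference of 0.09 ± 0.19 (SE, 95% interval -0.31 to 0.49; adjusted p = 0.950 in limma).

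PSME1, the alpha subunit of the cap, was the immunoproteasome gene with a negative difference. It ranged from 11.45 to 12.10 around 11.90 with normal ALP and from 10.62 to 12.39 around 11.83 with increased ALP. The medians were close, and 3 of the increased ALP group, tumours 3, 5 and 6, lay below every other tumour at 10.77, 10.87 and 10.62. The difference of means was -0.24 ± 0.21 (SE, 95% interval -0.68 to 0.21; adjusted p = 0.884 in limma), and it was 0.01 without tumours 3 and 6, the arrays of high spike-in signal. Other PSME1 probe sets gave -0.08, 0.03 and 0.12. In tumours 3, 5 and 6 of this group the brightest of the others read 11.21, 10.58 and 11.15, where its range over all tumours was 10.58 to 11.63, so tumours 3 and 6 were low at some probe sets of the gene and not at this one. The actin difference in these tumours was 0.567, 0.433 and 1.035, and with it as a covariate the PSME1 difference was -0.38 (limma, unadjusted p = 0.175).

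**Figure D2:**
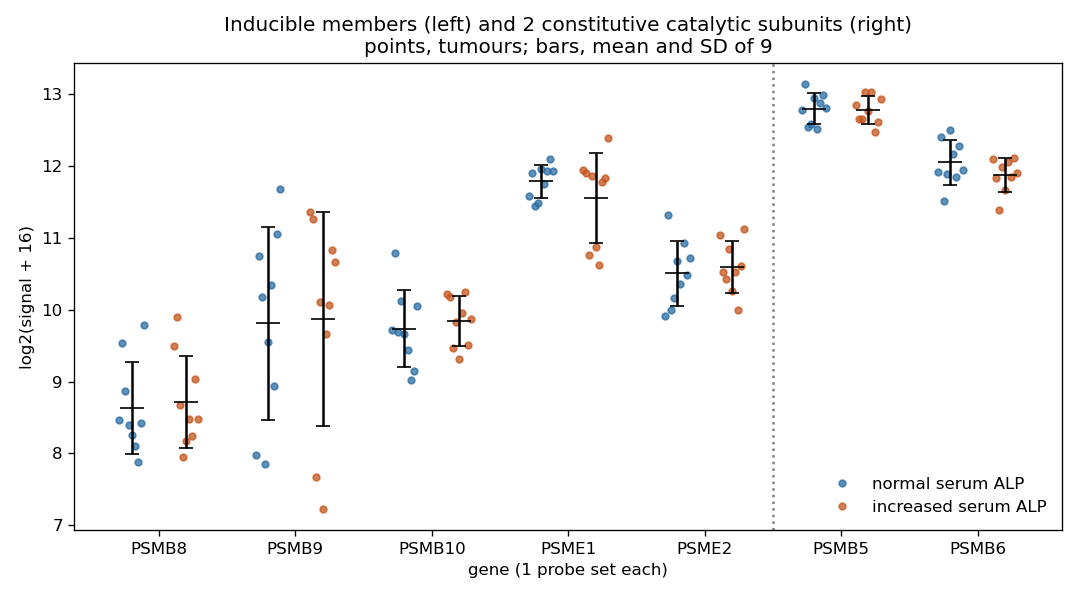
Level in log2(signal + 16) of the 5 immunoproteasome genes and of the constitutive catalytic subunits PSMB5 and PSMB6 in each tumour (points), with the mean and SD of 9 tumours per serum ALP group (bars). PSMB9 has 4 tumours between 7.23 and 7.98, with 2 in each group, while all PSMB5 values lie between 12.48 and 13.14; levels are not comparable between genes.

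The balance between an inducible subunit and the one it replaces was followed as the log2 difference of the pair in each tumour, relative to its mean over tumours. For PSMB8 minus PSMB5 it ran from -0.88 to 1.10 with normal ALP and from -0.97 to 1.36 with increased ALP. The groups differed by 0.10 in this balance (exact two-sided permutation p = 0.756, adjusted p = 0.756 over both pairs). For PSMB9 minus PSMB6 it ran from -1.92 to 1.86 and from -2.32 to 1.56, and the groups differed by 0.23 (exact two-sided permutation p = 0.707, adjusted p = 0.756). The tumours spanned 5.03-fold in the former balance and 18.2-fold in the latter. PSMB5 and PSMB6 themselves spanned 1.58-fold and 2.18-fold.

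The ATPases of the regulatory particle, PSMC2 to PSMC6, form the ring that unfolds and threads substrates. All 5 had a negative difference, between -0.21 and -0.02, with a median of -0.19. PSMC2 ranged from 10.95 to 11.95 around 11.55 with normal ALP and from 10.84 to 11.54 around 11.35 with increased ALP. Its groups overlapped except at the top, with a difference of -0.21 ± 0.13 (SE, 95% interval -0.48 to 0.06; adjusted p = 0.850 in limma). PSMC4 ranged from 9.79 to 10.76 around 10.52 and from 9.87 to 10.80 around 10.19, a difference of -0.19 ± 0.15 (SE; adjusted p = 0.864 in limma). PSMC5 stood out in a single tumour, increased ALP tumour 4, at 12.59, while the other 17 lay between 10.95 and 11.80. PSMC3 was the steadiest of the ring, with tumours within 1.71-fold of each other.

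Among the other subunits of the regulatory particle, 8 of 9 had a negative difference, with a median of -0.13. PSMD14, the deubiquitinase that releases the ubiquitin chain, ranged from 10.89 to 12.34 around 12.07 with normal ALP and from 11.21 to 12.94 around 11.86 with increased ALP. Both extremes were single tumours, normal ALP tumour 3 at the bottom and increased ALP tumour 4 at the top. The difference was -0.07 ± 0.23 (SE, 95% interval -0.55 to 0.40; adjusted p = 0.974 in limma). PSMD7, its inactive partner, ranged from 11.45 to 12.79 around 11.95 and from 11.31 to 12.26 around 11.75, a difference of -0.22 ± 0.17 (SE; adjusted p = 0.864 in limma), or -0.48 with the actin difference as a covariate (limma, unadjusted p = 0.0179). PSMD13 was the subunit with a positive difference, at 0.01, and the lid and base subunits PSMD2, PSMD3, PSMD6, PSMD8, PSMD11 and PSMD12 lay between -0.16 and -0.01.

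The assembly chaperones had 3 negative and 2 positive differences. PSMG2, which pairs with PSMG1 to build the alpha ring, ranged from 11.04 to 11.83 around 11.52 with normal ALP and from 9.83 to 11.83 around 11.40 with increased ALP. The low end came from increased ALP tumour 3, an array of high spike-in signal, and the difference was -0.31 ± 0.23 (SE, 95% interval -0.79 to 0.17; adjusted p = 0.860 in limma). Without that tumour it was -0.14, and with the actin difference as a covariate it was -0.64 (limma, unadjusted p = 0.0237). PSMD10 (gankyrin), which helps assemble the base of the regulatory particle, ranged from 9.90 to 10.52 around 10.20 and from 9.24 to 10.38 around 10.03. The same tumour was lowest there, and the difference was -0.21 ± 0.14 (SE; adjusted p = 0.852 in limma), or -0.12 without it. PSMG1 and PSMG3 had differences of 0.07 ± 0.18 and 0.11 ± 0.13 (SE), and PSMD9 one of -0.09. Another probe set of PSMG1 gave -0.11 and another of PSMG3 gave -0.06, so the sign of these genes depended on the probe set.

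The alternative caps and the inhibitor gave no call with serum ALP. PSME3 (PA28 gamma), a nuclear cap, ranged from 7.88 to 9.62 with normal and from 8.15 to 9.19 with increased ALP, a difference of -0.04 ± 0.20 (SE; adjusted p = 0.985 in limma). PSME4 (PA200), a cap linked to histone degradation, ranged from 9.73 to 10.67 and from 9.77 to 10.72, a difference of 0.11 ± 0.14 (SE, adjusted p = 0.916 in limma), or 0.34 with the actin difference as a covariate (limma, unadjusted p = 0.0443). Other PSME4 probe sets gave -0.34 and 0.06 without the covariate. PSMF1 (PI31), first described as an inhibitor of the core, ranged from 6.98 to 8.31 and from 7.03 to 7.99, a difference of -0.08 ± 0.18 (SE; adjusted p = 0.952 in limma). For PSME4 the groups covered nearly the same range, while for PSME3 and PSMF1 the increased group spanned less and overlapped the middle of the normal group.

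PSMB11, the beta subunit of thymic epithelium, lies next to PSMB5 in the RefSeq order of the assembly UU_Cfam_GSD_1.0, and its probe set sat just above the filter. It ranged from 6.08 to 6.26 around 6.19 with normal ALP and from 6.09 to 6.53 around 6.26 with increased ALP. The groups overlapped in this narrow band, and the difference was 0.10 ± 0.05 (SE, 95% interval -0.01 to 0.21; unadjusted p = 0.0854, adjusted p = 0.842 in limma). Its level followed the actin difference across tumours (r = 0.723, n = 18), and with that difference as a covariate the estimate was 0.02 (limma, unadjusted p = 0.788). PSMC3IP and PSME3IP1 had differences of 0.09 ± 0.22 and 0.17 ± 0.15 (SE; adjusted p = 0.962 and 0.879 in limma).

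Some tumours were high or low across the whole complex, irrespective of serum ALP. Normal ALP tumour 2 had the highest level in 12 of 27 constitutive subunits and lay above the gene's mean in 25, by 0.54 on average. Normal ALP tumour 8 and increased ALP tumour 4 each lay above the mean in 26, by 0.39 on average. At the other end, normal ALP tumour 3 lay below the mean in 27 of 27, by -0.51 on average, and increased ALP tumour 7 in 27 of 27, by -0.29. Both groups therefore held tumours with high and with low levels of the constitutive subunits. The order by the immunoproteasome genes differed in part, though normal ALP tumour 2 was highest by both averages and increased ALP tumour 3 low by both. The average deviation of the immunoproteasome genes was highest in normal ALP tumours 2 and 9 (0.75 and 0.73) and increased ALP tumours 1 and 2 (0.71 and 0.65). It was lowest in increased ALP tumours 5 and 3 (-0.94 and -0.70). PSMB9, with the largest SD of the 5 genes (1.38), weighs most in this average.

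**Figure D3:**
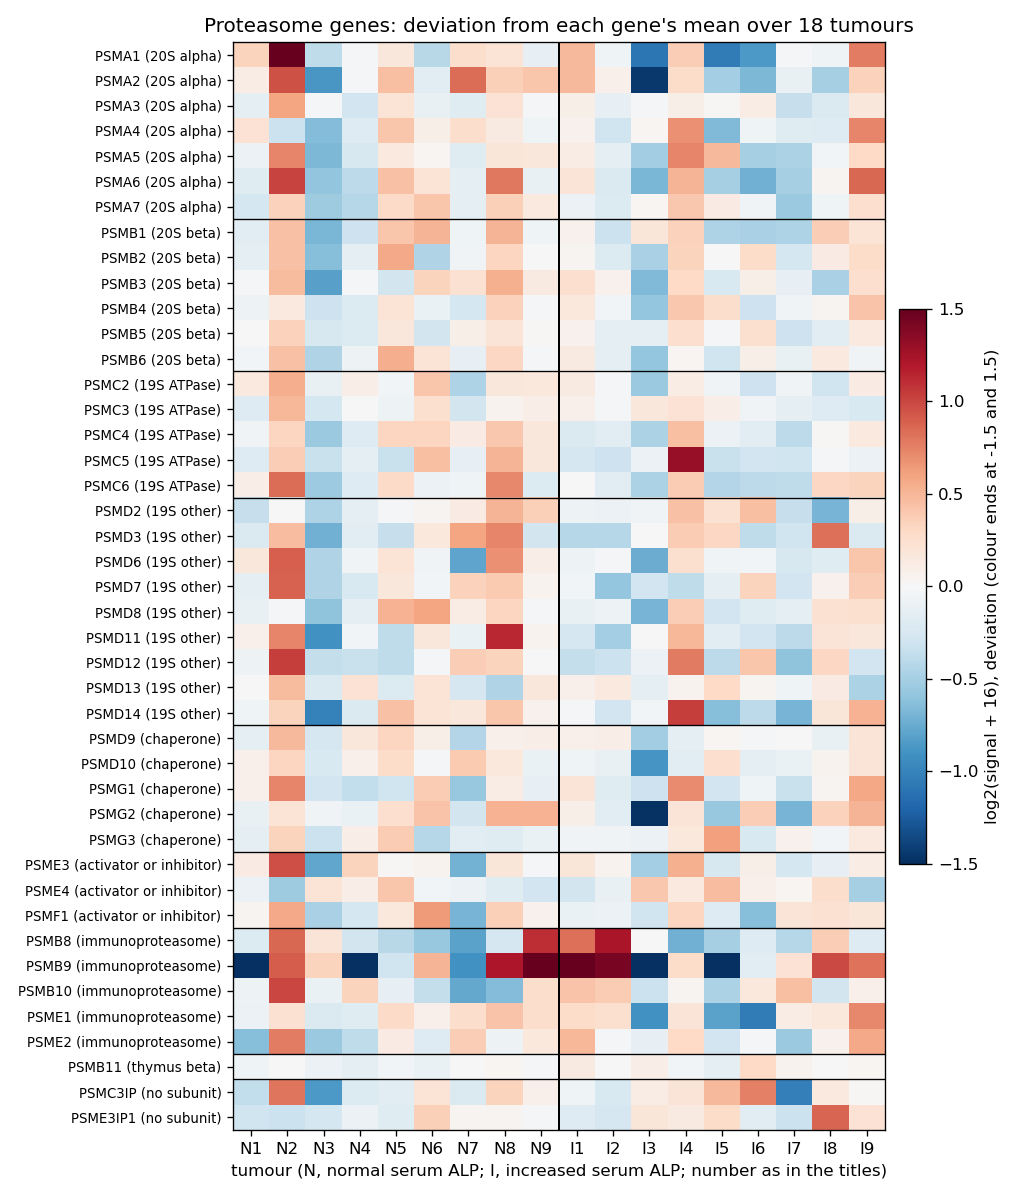
Deviation of each tested member (rows, grouped by role) from its mean over the 18 tumours (columns), in log2(signal + 16). Normal ALP tumour 2 is high and normal ALP tumour 3 low across most constitutive subunits, while PSMB9 is low in normal ALP tumours 1 and 4 and increased ALP tumours 3 and 5.

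The constitutive subunits moved together from tumour to tumour. Over 351 pairs of them the median Pearson r was 0.52 (range -0.51 to 0.93), where the median over all pairs of tested genes was 0.00. The constitutive subunits tested had mean levels of 9.34 or more, while all tested genes reach down to 6.15. Pairs of genes of like level were not compared. These correlations describe 18 tumours that share the same arrays, and they carry no test. The median was 0.54 within the alpha ring, 0.53 within the beta ring, 0.57 between both rings, 0.53 among the ATPases and 0.40 among the other subunits of the regulatory particle. PSMA6 and PSMC6 formed the closest pair (r = 0.927), followed by PSMC4 with PSMD8 (0.866) and PSMB1 with PSMD14 (0.863). PSMD13 was the exception, with a median r of 0.01 with the other constitutive subunits. The chaperones PSMG1 (0.58) and PSMD9 (0.44), the cap subunit PSME3 (0.55) and PSMF1 (0.54) moved with the constitutive subunits too.

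PSME4 ran opposite to the rest. Its median r with the constitutive subunits was -0.33, and the lowest pairs of the family were PSME4 with PSMA1 (-0.735) and with PSMB3 (-0.731). Its lowest level was in normal ALP tumour 2, the tumour highest in 12 of 27 constitutive subunits, at 9.73. The other probe sets of PSME4 followed the one used only in part, with r of 0.292 and 0.552.

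Among the immunoproteasome genes, PSMB8 and PSMB10 moved least with the constitutive complex, the cap genes moved with it, and PSMB9 lay between. PSMB8 had a median r of 0.00 with the 27 constitutive subunits, PSMB10 of 0.12 and PSMB9 of 0.27 (range -0.06 to 0.50). PSME1 and PSME2 had medians of 0.43 and 0.53, close to that of the constitutive subunits among themselves. Against 22 genes of cell division the cap genes parted. The median r was 0.49 with the constitutive subunits, 0.51 with PSMB5 and 0.48 with PSME2, but -0.05 with PSMB8, -0.03 with PSMB9, -0.05 with PSMB10 and 0.11 with PSME1. PSMB5 followed CDK1, the kinase that drives mitosis, most closely of these (0.738).

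**Figure D4:**
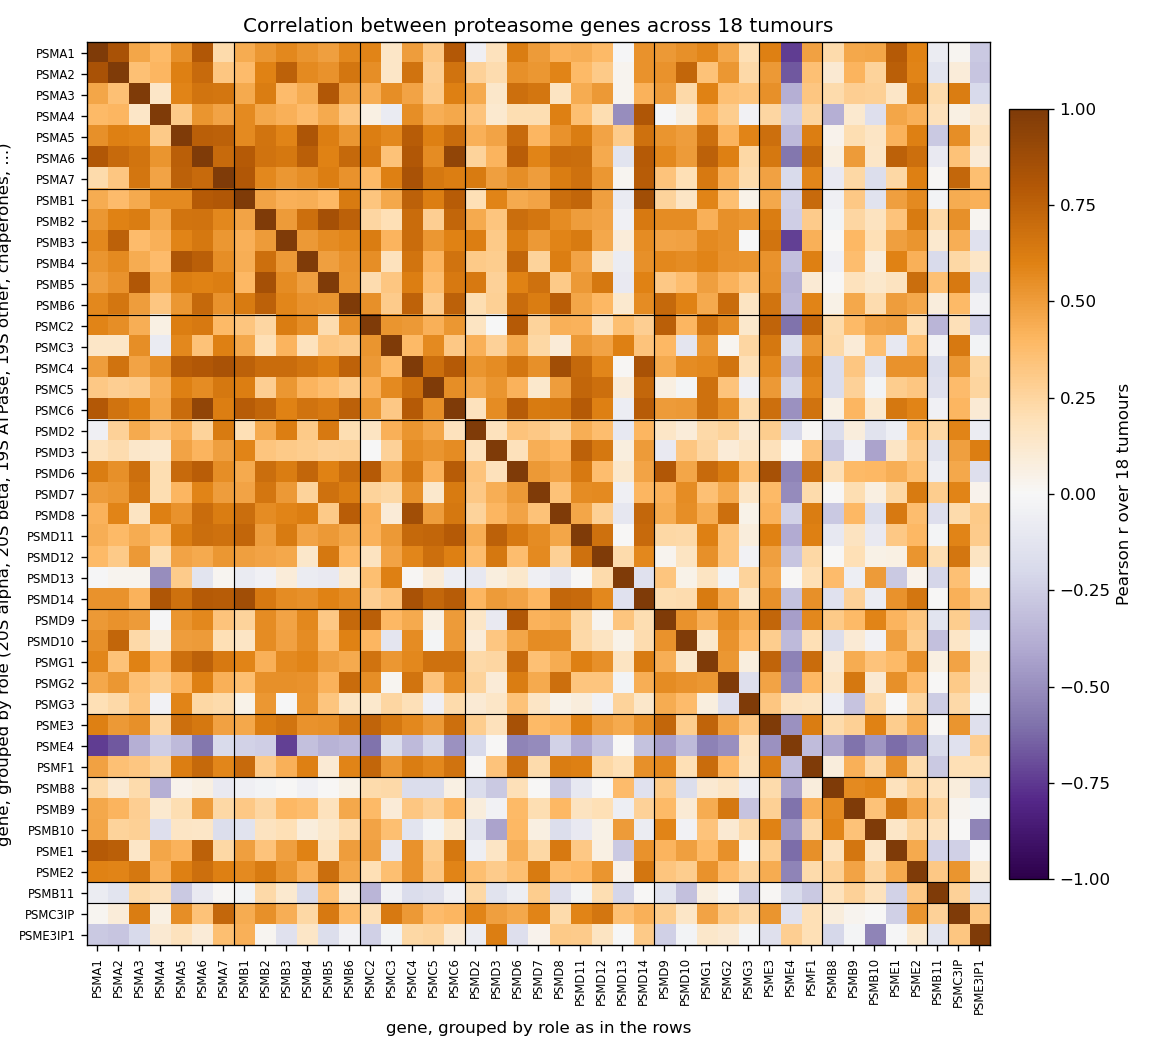
Pearson r between the 43 tested members across 18 tumours (rows and columns grouped by role, colour from -1 to 1). The constitutive subunits have mostly positive r among themselves (median 0.52, range -0.51 to 0.93). PSME4 is negative against most genes, and PSMB8 has a median r of 0.00 with the constitutive subunits.

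Selected relations of the inducible genes were tested by permutation over the 18 tumours, with Benjamini-Hochberg adjustment over the 27 relations computed, of which 8 passed. Among the catalytic subunits PSMB8 followed PSMB10 (r = 0.59, adjusted permutation p = 0.0382; rho = 0.52, adjusted permutation p = 0.0783) and PSMB9 (r = 0.57, rho = 0.60, adjusted permutation p of r = 0.0452). PSMB9 also followed PSME1 (r = 0.65, rho = 0.62, adjusted permutation p = 0.0210). Without the 2 tumours farthest from the median of the former gene, PSMB8 with PSMB10 changed little (r = 0.58, unadjusted permutation p = 0.0197). The r was lower for PSMB8 with PSMB9 (0.42, unadjusted permutation p = 0.104) and for PSMB9 with PSME1 (0.41, unadjusted permutation p = 0.122). By that measure the latter 2 relations rest on those tumours. These p-values were not adjusted over the 27 relations, so they do not show whether a relation would still pass. Within normal and increased ALP, PSMB8 with PSMB9 had an r of 0.59 and 0.55, and without the 4 tumours of low PSMB9, chosen after seeing the data, it was 0.79 (permutation p = 0.00091). PSMB9 with PSME1 was 0.35 without those 4 (permutation p = 0.220). Leaving out single tumours raised the adjusted p of these 3 relations to at most 0.118, 0.121 and 0.0604. PSMB8 with PSMB5 had an r of 0.01 (permutation p = 0.984) and PSMB9 with PSMB6 of 0.45 (adjusted permutation p = 0.117), so neither exchange pair passed. PSME1 with PSME2 had an r of 0.45 (adjusted permutation p = 0.117) and a rho of 0.64 (adjusted permutation p = 0.0323), and without the 2 farthest tumours r was 0.62.

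IRF1, a transcription factor induced by interferon-gamma that acts on the PSMB8 and PSMB9 genes, was followed by 3 of the 5 in Pearson r. The r with IRF1 was 0.68 for PSMB8, 0.66 for PSME2 and 0.62 for PSMB9 (adjusted permutation p = 0.0174, 0.0174 and 0.0278). Without the 2 farthest tumours these were 0.78, 0.56 and 0.65, and within the serum groups they were 0.60 and 0.76, 0.81 and 0.58, and 0.69 and 0.58, for normal and increased ALP in turn. All had the same sign in both groups. Leaving out single tumours raised the adjusted permutation p with IRF1 to at most 0.043 for PSMB8, 0.069 for PSME2 and 0.060 for PSMB9. The PSME2 and PSMB9 relations thus did not pass without certain single tumours. In Pearson r, PSME1 and PSMB10 did not pass with IRF1, at 0.43 and 0.27 (adjusted permutation p = 0.123 and 0.343). In rho, PSME1 did pass, at 0.67 (adjusted permutation p = 0.029), the same rho as for PSME2. PSMB10 had a rho of 0.09 (adjusted permutation p = 0.775). Of 12 tested interferon-gamma response genes, GBP1, an interferon-induced GTPase, was closest to PSMB8 (r = 0.855). The median r of PSMB8 over those 12 was 0.48 and the lowest -0.21.

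PSMB8 also followed markers of blood-derived cells. With PTPRC (CD45), carried by all leukocytes, r was 0.70 (adjusted permutation p = 0.0174; rho = 0.48, adjusted permutation p = 0.107), 0.80 within normal and 0.79 within increased ALP, and 0.50 without the 2 farthest tumours (permutation p = 0.0482). The relations of PSMB8 with IRF1, TAP1 and PTPRC each kept an adjusted permutation p of at most 0.0466 when any 1 tumour was left out. As a description, the median r of PSMB8 was 0.72 with 4 leukocyte markers, 0.76 with 5 MHC class II genes, 0.68 with 9 macrophage markers and 0.53 with 8 T and NK cell markers. The lowest r of PSMB8 in these lists was 0.54, 0.30, -0.06 and 0.41 in turn, so not every macrophage marker moved with it. For PSMB10 the lowest r with a macrophage marker was -0.225. For macrophage markers and MHC class II genes in turn, the median r was 0.66 and 0.71 with PSMB10, 0.37 and 0.24 with PSMB9, and -0.06 and -0.16 with the constitutive subunits. B2M, the light chain of MHC class I, had the highest r with PSMB8 (0.899) of 13 tested genes of MHC class I antigen processing. The median r over those 13 was 0.18 and the lowest -0.29. All 8 T and NK cell markers had a positive difference between the serum groups (median 0.24), where 46.6% of all genes tested had a negative one. LCK alone had an unadjusted p under 0.05 (adjusted p = 0.810 in limma), beside 6.14% of all probe sets. A positive difference was found for 2 of 4 leukocyte markers (median -0.03, PTPRC at -0.38). It was found for 6 of 9 macrophage markers (median 0.04) and 4 of 5 MHC class II genes (median 0.26). The summed signal of the 9 macrophage markers ran from 6741 to 28250 with normal and from 9677 to 27500 with increased ALP, and that of the 4 leukocyte markers from 1458 to 7531 and from 1936 to 4878. GZMB and PRF1, of the T and NK cell list, and MS4A1, CD79A and CD79B, of the B and plasma cell list, were below the filter. The part of these cells in the levels of the inducible genes was not tested.

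TAP1 and TAP2, which carry peptides into the endoplasmic reticulum, alternate with PSMB8 and PSMB9 in the RefSeq order of the assembly named above (TAP2, PSMB8, TAP1, PSMB9), with 0 other protein-coding genes between neighbours. PSME1 and PSME2 lie on either side of EMC9. PSMB8 followed TAP1 (r = 0.71, rho = 0.61, adjusted permutation p = 0.0174), at 0.80 within normal and 0.63 within increased ALP. PSMB9 had an r of 0.46 with TAP1 (rho = 0.57, adjusted permutation p of r = 0.116). The groups differed here, with 0.88 in normal and -0.13 in increased ALP, a difference that was not tested. Without the 4 tumours of low PSMB9, a choice made after seeing the data, r was 0.84. In normal ALP tumours 1 and 4 TAP1 was also the lowest of all tumours, at 9.48 and 9.64. In increased ALP tumours 3 and 5 it was not, at 10.45 and 10.15, within a range of 9.48 to 11.06 over all tumours. TAP2 read 10.90 and 10.64 in the same tumours 3 and 5, the highest levels of that gene.

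**Figure D5:**
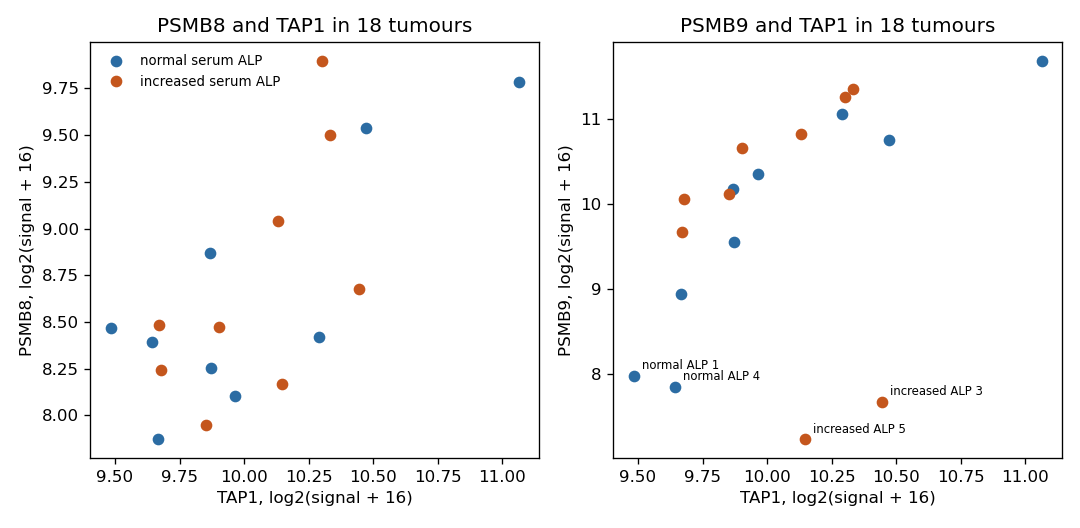
Level of PSMB8 (left) and PSMB9 (right) against TAP1 in each of the 18 tumours, in log2(signal + 16), coloured by serum ALP group. Increased ALP tumours 3 and 5 have PSMB9 of 7.66 and 7.23 at TAP1 levels of 10.45 and 10.15, below the other tumours of like TAP1.

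Genes that work with the proteasome outside the PSM symbols gave no call either. Of 21 tested partners, such as ubiquitin shuttles, chaperones and transcription factors of the proteasome genes, 16 had a negative difference, with a median of -0.10. UBQLN1 and RAD23B, which ferry ubiquitinated proteins to the proteasome, and UBB, a polyubiquitin gene, had an unadjusted p under 0.05, 3 of 21 beside 6.14% of all probe sets. Their differences were -0.61 ± 0.20, -0.33 ± 0.11 and -0.19 ± 0.08 (SE), with adjusted p of 0.642, 0.674 and 0.767 in limma. Of 13 genes of MHC class I antigen processing 8 had a negative difference (median -0.04), of 12 interferon-gamma response genes 6 (median 0.01), of 18 type I interferon genes 14 (median -0.12) and of 22 cell division genes 14 (median -0.10), where 46.6% of all genes tested had a negative difference. No gene of these 4 lists had an unadjusted p under 0.05 in limma. The furthest by p in these lists were DLA-79, a class I gene (0.62 ± 0.43), SOCS1, a brake on interferon signalling (-0.34 ± 0.20), EIF2AK2, an interferon-induced kinase (-0.30 ± 0.18), and MCM3, a replication helicase subunit (-0.45 ± 0.29, SE throughout).

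The measured probe sets of a gene usually moved together. Of 38 further probe sets of the members that passed the filter, 34 had an r over 0.5 with the probe set used, with a median of 0.78. The lowest belonged to a dim PSME1 probe set (r = -0.46). Of the 44 probe sets used, 27 carry suffixes that mark probes shared with other transcripts (_s_at or _x_at) and 3 the suffix for transcripts of 1 gene (_a_at).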

How the data were processed

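Tumour RNA had been extracted with TRIzol, and biotin-labelled cRNA from 10 µg of total RNA was hybridised to 1 array per tumour, per the labels' protocols. The values deposited by the authors are log2 signals of 43035 probe sets, from 2.03 to 15.09. MAS5 is named in the submitters' processing notes, while its version, scaling and normalization are not given in the sources used here. Detection calls were not used, so which probe sets lay above background is not known.

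Control probe sets (111) were set aside, and each level is log2 of the linear signal plus 16. The 25754 probe sets with a mean at or above the 40th percentile (6.15) were tested, with no further normalization. Gene symbols came from the platform annotation, which can be old. RefSeq held the gene identifiers of 38 of the 44 members, all under the same symbol.

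The groups of 9 tumours were compared with limma 3.58.1 in R 4.3.3 (lmFit, eBayes with an intensity trend, two-sided, Benjamini-Hochberg over all probe sets, threshold 0.05), and the fit was tested on simulated data. Single values per tumour were compared by exact permutation over all 48620 splits. Correlations used 100000 permutations, and of 38 relations planned 11 are not reported here. Python 3.11.15 was used with matplotlib 3.10.9 for plots, pandas 2.3.3 for tables, and NumPy 2.4.6 and SciPy 1.17.1 for permutations. Lists outside the symbol rule are described by counts and medians, with no set test.

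Full statistics were given for the immunoproteasome genes, PSMB5, PSMB6, PSME3, PSME4, PSMF1 and PSMD14, and for up to 6 further members of smallest p in each direction. Each list outside the PSM symbols was represented by up to 3 members of smallest p. The members and lists were chosen with earlier results of these data known. The alternatives were other offsets, filters, scalings, moderation and array weights, an RNA quality covariate, a replicate block, all probe sets of a gene, and leaving out arrays.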

Additional observations from a re-analysis of the deposited data

Results flagged for a closer look

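In 86 sets of 9 tumours, 1 per member and serum group, 7 held a tumour far from the rest, where chance flags about 1 in 20 groups. PSMC5 stood at 12.59 in increased ALP tumour 4, with the nearest of its group at 11.26. PSMA1 stood at 10.84 in normal ALP tumour 2, with the nearest at 9.68. PSMD14 was low in normal ALP tumour 3, at 10.89 against 11.68 in the nearest. Increased ALP tumour 3 was low for PSMD10, a chaperone of the regulatory base, at 9.24 against 9.96, and for PSMD9, another chaperone of that base, at 7.66 against 8.04. PSMG3, a chaperone of the alpha ring, was high in increased ALP tumour 5, at 9.21 against 8.76. PSME3IP1 was high in increased ALP tumour 8, at 10.60 against 9.99. All values are log2(signal + 16). Single tumours carry no replicate, so these levels have no test.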

How the results depend on the processing

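No member was called under any alternative run. The median of the constitutive subunits ran from -0.20 to -0.04 and that of the immunoproteasome from -0.07 to 0.19 when 1 tumour was left out, and they were -0.05 and 0.24 with array weights. With the tissue number as a replicate block, 0 of 25754 probe sets were called and the smallest adjusted p of a member was 0.641 in limma. Deviations of same-numbered tumours correlated between -0.164 and 0.270, over 0.1 in 4 of 9 pairs, and 0 tumours correlated best with their own number. Their mean r was 0.055, against -0.007 between tumours of different number. These 9 pairs cannot settle whether the numbers pair tumours. The block moved the probe sets at an unadjusted p under 0.05 from 1582 to 1677 and changed no call. It moved the smallest adjusted p of all probe sets from 0.608 to 0.068 in limma. An unadjusted p under 0.05 appeared for PSMA2 with the block, for PSMB11 with array weights and for PSMD7, PSME4 and PSMG2 with the actin covariate. It also appeared for PSMA2 without normal ALP tumour 3, PSMC2 without normal ALP tumour 7 and PSMB11 without increased ALP tumour 5.

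Several signs turned, mostly of differences near 0 (PSME1, at -0.24, was further off). For PSMB5 the difference was 0.014 with quantile normalization, 0.026 with 75th percentile scaling and 0.0018 with array weights. PSME3 gave 0.0044 with that scaling, 0.014 with the GAPDH covariate and 0.016 without the 2 arrays of high spike-in signal, where PSMF1 gave 0.037, PSME1 0.010 and PSMC3IP -0.022. The GAPDH covariate gave 0.00044 for PSMF1 and 0.020 for PSMD14. The actin covariate gave -0.52 for PSMB9, -0.11 for PSME2 and -0.044 for PSMG1. The mean over a gene's probe sets gave -0.056 for PSME4 and -0.017 for PSMG1. Leaving out 1 tumour gave -0.19 to 0.39 for PSMB9, -0.067 to 0.22 for PSMB8, -0.055 to 0.023 for PSMB5, -0.14 to 0.079 for PSME3, -0.011 to 0.22 for PSMC3IP, -0.21 to 0.0091 for PSMD14 and -0.0087 to 0.17 for PSMG1. The cause was not tested.

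Correlations that had not passed also turned. PSMB8 with PSMB5 was -0.018 with quantile normalization, -0.054 over all probe sets, -0.28 within increased ALP, -0.045 without the 4 tumours lowest in PSMB9, and -0.17 to 0.10 without 1 tumour. PSMB10 with PSME1 was -0.21 within normal ALP and -0.072 without those 4 tumours. With TAP1, PSMB9 was -0.13, PSMB10 -0.29 and PSME1 -0.050 within increased ALP, and PSMB10 was -0.065 without the 2 farthest tumours. Leaving out 1 tumour gave -0.021 to 0.40 for PSMB10 with PSME2 and -0.0038 to 0.29 for PSME1 with TAP1. In 52 of the alternative values a relation that had passed no longer did, and in 5 one that had not passed did; within a group fewer tumours enter. Detection calls were not used, so the limit set by signal over background is not known for the dim PSMB11 and PSMF1.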
